A study of Homo sapiens with 9 samples.

Results

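The genes described here move amino acids into the cell, make serine and one-carbon units, interconvert glutamate and related amino acids, and charge tRNAs. They are 49 of the 28216 genes in the deposited count table, and were chosen by symbol for these functions. By role, they comprise 21 amino acid transporters, 8 enzymes of serine synthesis and folate-bound one-carbon metabolism, 8 other amino acid enzymes and 12 cytosolic aminoacyl-tRNA synthetases. RNA was sequenced from PC3 and LNCaP cells, established lines that derive from metastases of prostate cancer, in 3 groups of 3 libraries. PC3 cells were untreated and grown in Ham's F12K medium with 10% fetal bovine serum. LNCaP cells (clone FCG) were kept in RPMI medium without phenol red and with charcoal-stripped serum for 24 h, after which androgen (10 nM) or vehicle (0.01% ethanol) was present for a further 48 h. The labels name the androgen DHT, whereas the main text names R1881. F12K and RPMI differ in their amino acids, so the cell line, its medium and its serum cannot be told apart in any comparison of PC3 with LNCaP cells.

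Amino acids cross the plasma membrane through families of carriers with overlapping substrates. The system L carrier LAT1, encoded by SLC7A5, takes up leucine and other large neutral amino acids as a dimer with the SLC3A2 heavy chain, in exchange for amino acids such as glutamine that other carriers have brought in. Serine is made from a glycolytic intermediate by PHGDH, PSAT1 and PSPH, and the SHMT and MTHFD enzymes pass its side-chain carbon to folate. When amino acids run short and uncharged tRNAs accumulate, the kinase GCN2 (EIF2AK4) promotes translation of the transcription factor ATF4, which binds composite elements in the promoters of many transporter, serine synthesis and synthetase genes. LNCaP cells respond to androgen, and PC3 cells are androgen-insensitive.

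The promoters of 16 genes held the 8-letter core of such an element, TGATGNAA, in the RefSeq sequence from 250 bases before to 50 bases after an annotated start (GRCh38.p14, both strands searched). RefSeq promoters were matched for 41 of the 49 genes. The element was thus in 39% of the genes matched, against 4.46% of the 27305 genes in the promoter table, and in 18 of 68 promoters (26.5%) against 3.62% of all 35116. It was in 7 of 10 synthetase genes, 6 of 18 transporters, 2 of 7 other enzymes and 1 of 6 serine and one-carbon enzymes. The androgen response element consensus, searched on both strands, was in the promoters of 0 of the 41 genes and of 0.0586% of all genes. At so low a share a match among 41 genes was unlikely, so the 0 marks nothing particular to these genes. A match is a run of letters and not a measured binding site. The windows of the synthetases are printed first and those of transporters and enzymes second, because these are the roles in which matches were found. Each reads in the direction of transcription of its gene, with the match in capitals.
CARS1, chr11:3057407-3057436, minus strand: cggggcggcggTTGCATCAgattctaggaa
GARS1, chr7:30594834-30594863, plus strand: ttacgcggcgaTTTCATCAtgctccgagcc
IARS1, chr9:92293692-92293721, minus strand: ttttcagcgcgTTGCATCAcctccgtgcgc
MARS1, chr12:57488053-57488082, plus strand: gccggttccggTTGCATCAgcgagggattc
NARS1, chr18:57621804-57621833, minus strand: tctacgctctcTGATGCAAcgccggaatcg
TARS1, chr5:33440956-33440985, plus strand: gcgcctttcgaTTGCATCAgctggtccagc
AARS1, chr16:70289675-70289704, minus strand: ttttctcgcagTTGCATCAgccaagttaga
SLC1A3, chr5:36596357-36596386, plus strand: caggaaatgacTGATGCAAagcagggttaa
SLC3A2, chr11:62881725-62881748, plus strand: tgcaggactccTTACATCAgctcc
SLC1A4, chr2:64989381-64989410, plus strand: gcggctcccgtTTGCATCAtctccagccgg
SLC1A5, chr19:46784893-46784922, minus strand: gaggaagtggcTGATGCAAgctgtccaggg
SLC38A1, chr12:46266502-46266531, minus strand: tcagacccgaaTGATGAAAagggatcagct
SLC7A1, chr13:29595663-29595692, minus strand: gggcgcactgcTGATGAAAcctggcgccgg
MTHFD1L, chr6:150866346-150866375, plus strand: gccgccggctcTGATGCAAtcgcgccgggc
ASNS, chr7:97872458-97872487, minus strand: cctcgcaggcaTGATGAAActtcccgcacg
GOT1, chr10:99430804-99430833, minus strand: aattgcattggTTGCATCAttctcggcagc
In 6 of the 7 synthetase genes the match began within 33 bases of a start on either side, and AARS1 was the exception at 187 bases before it.

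**Figure D1:**
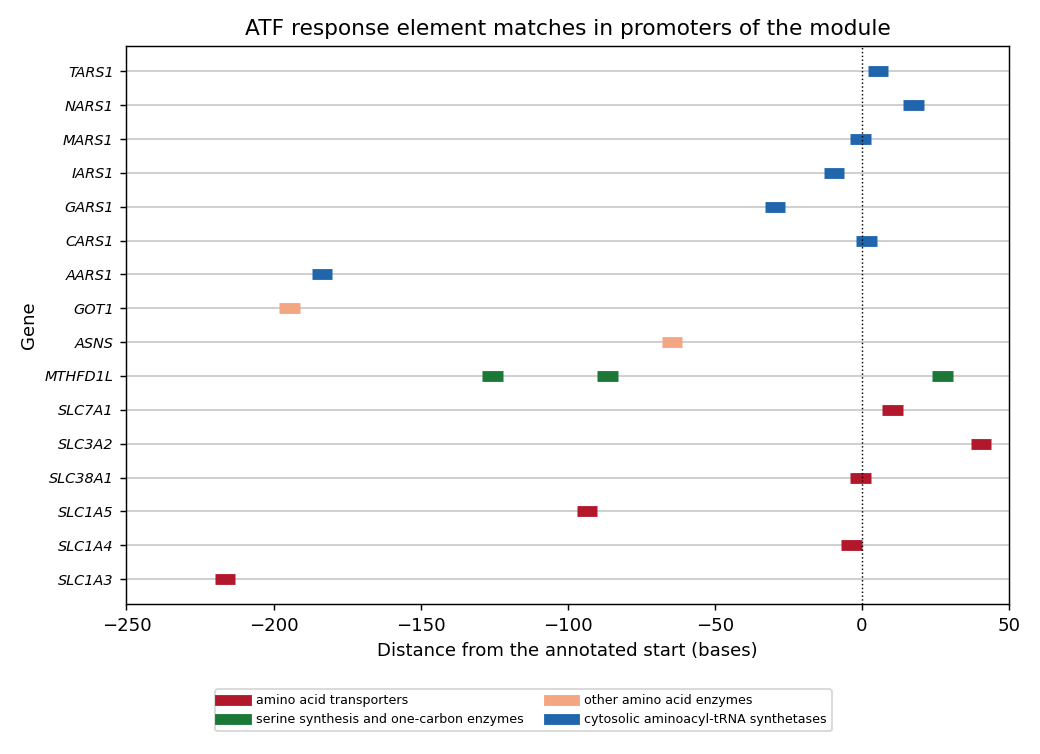
Positions of TGATGNAA matches in the promoters of 16 genes, as the distance in bases from the annotated start (dotted line at 0), coloured by role. For MTHFD1L, 1 site is drawn at its distance from each of 3 annotated starts. The synthetase matches cluster near the start, apart from AARS1.

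The libraries held 17397706 to 25640325 reads counted on genes. The vehicle libraries (17397706 to 18674795 counts) were all below the androgen libraries (21094326 to 23460708 counts). Levels are given as CPM (a gene's counts relative to the total of its library) after scaling with TMM factors over the 9 libraries, and 3 counts, the limit that a count of 0 allows, stood at 0.118 to 0.165 CPM. PC3 replicate 3 stood apart from the other PC3 libraries (chi-square per gene of 31.5 and 54.4 against 11.6 between the other two), and over the 45 genes of the module tested in all comparisons the median coefficient of variation was 14.4% in PC3, 5.39% in androgen-treated and 2.74% in vehicle-treated cells. Within these 45 genes, PC3 replicate 2 was the lowest PC3 library for 29, replicate 3 for 9 and replicate 1 for 7. The summed PC3 markers VIM, CAV1, CD44 and EPHA2 ranged from 2674 to 2810 CPM in PC3 libraries and from 8.23 to 26.7 CPM in LNCaP libraries, with the highest LNCaP value in androgen replicate 1. The summed LNCaP markers KLK3, KLK2, TMPRSS2, FOLH1 and HOXB13 ranged from 2514 to 8663 CPM in LNCaP and from 493 to 848 CPM in PC3 libraries, where HOXB13 gave nearly all of the sum and KLK2 was at 0 counts. HOXB13 therefore did not separate the lines, while the other markers did. In bulk RNA, fewer cells expressing a gene and less RNA per cell cannot be told apart.

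The first comparison asked which of these genes responded to androgen in LNCaP cells. SLC38A4, SLC43A1 and GLUD1 rose at least 2-fold, and SLC7A5, SLC1A1, PHGDH and GLS2 fell at least 2-fold. No synthetase changed by that much, and most changes across the module were smaller. A gene was called where edgeR's quasi-likelihood test gave a Benjamini-Hochberg adjusted p under 0.05 over all genes and the fold change was at least 2. By this rule 3 of the 46 genes tested were called higher (6.54% of 11697 genes tested overall) and 4 lower (7.49% overall). By the adjusted p alone, 19 were higher (37.1% overall) and 22 lower (37.8% overall). Both shares of the module lay near those over all genes, and its median log2 fold change was -0.047 against -0.0068 over all genes. SLC1A2 and SLC38A5 were too low to test in any comparison, and SLC1A3 was too low in this one.

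**Figure D2:**
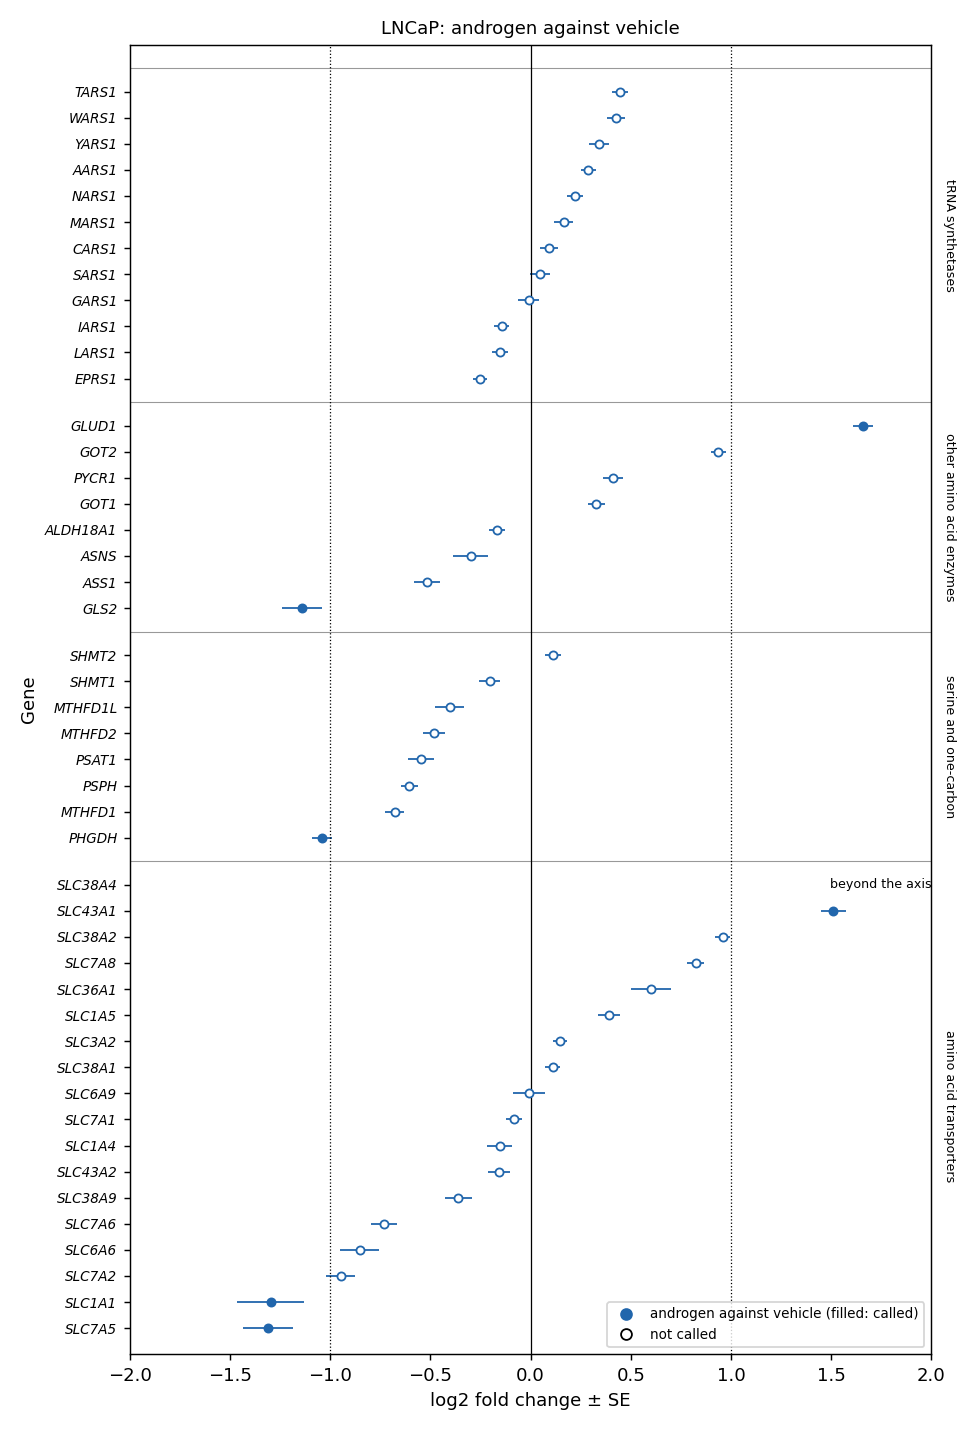
Log2 fold change (± SE) of androgen against vehicle in LNCaP cells for the 46 genes tested, by role, with filled points for genes called and dotted lines at a fold change of 2. SLC38A4 lies beyond the axis, and 7 genes including it were called.

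Among transporters, SLC7A5 (chr16:87830023-87869507, minus strand, GRCh38), the LAT1 gene, stood at 20.3, 20.6 and 17.5 CPM with vehicle and at 9.04, 8.24 and 6.10 CPM with androgen. Every androgen library was below every vehicle library. The log2 fold change was -1.31 (SE 0.13, adjusted p = 6.96e-07, edgeR quasi-likelihood test). SLC7A5 is abundant in PC3 cells, and its level was 1.67%, 1.52% and 1.13% of the PC3 mean in the androgen libraries. The PC3 marker VIM stood at 1.01%, 0.584% and 0.442% of its PC3 mean in the same libraries, and CAV1 at 0.776%, 0.188% and 0.0958%. In the vehicle libraries SLC7A5 stood at 3.24% to 3.81% of the PC3 mean, and VIM at 0.104% to 0.325%. The PC3 marker CD44 stood at 0.192% to 0.656% of its PC3 mean with androgen and at 0.0894% to 0.292% with vehicle. The ranges of EPHA2 overlapped, at 0.738% to 1.182% with androgen and 0.901% to 1.076% with vehicle. The part of PC3 RNA in these levels was not tested.

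SLC43A1 (chr11:57484534-57515780, minus strand) encodes LAT3, a facilitated carrier of large neutral amino acids. It rose from 44.2, 52.5 and 48.0 CPM with vehicle to 135, 147 and 130 CPM with androgen. The groups were widely separated, with a log2 fold change of 1.51 (SE 0.06, adjusted p = 2.25e-10, edgeR quasi-likelihood test). SLC7A8, the gene of LAT2, another SLC3A2 partner, rose less than 2-fold, from 61.3 ± 2.20 to 108 ± 2.82 CPM (mean ± SD, n = 3). SLC43A2, the gene of LAT4, differed little, at 59.4 ± 0.282 CPM with vehicle and 53.2 ± 3.74 CPM with androgen (log2 fold change -0.16, SE 0.06).

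SLC38A4 (chr12:46764761-46832408, minus strand) encodes SNAT4, a sodium-coupled carrier of small neutral amino acids. Vehicle libraries held 0, 0 and 2 counts of it, and androgen libraries held 283, 350 and 320 counts, or 12.7, 17.3 and 16.1 CPM. The gene was thus close to undetected without androgen and well above the limit of detection with it. The ratio of the summed counts was 435 (exact 95% interval 120 to 3595, counting error only), and the adjusted p was 1.79e-10 by edgeR's quasi-likelihood test. Its paralogue SLC38A2, the widely expressed system A carrier SNAT2, rose from 367 ± 6.23 to 714 ± 30.2 CPM (n = 3), just under the 2-fold limit (log2 fold change 0.96, SE 0.04). SLC38A1 had a log2 fold change of 0.11 (SE 0.04).

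SLC1A1 (chr9:4490468-4587469, plus strand) encodes the glutamate and aspartate carrier EAAC1. It stood at 10.9, 15.8 and 13.6 CPM with vehicle and at 4.43, 7.01 and 4.94 CPM with androgen. The groups did not overlap, although SLC1A1 had the largest relative spread in both LNCaP groups among the 45 genes tested in all comparisons. Its log2 fold change was -1.30 (SE 0.17, adjusted p = 1.14e-05, edgeR quasi-likelihood test). Of the remaining transporters, the cationic amino acid carrier SLC7A2 (-0.95), the taurine carrier SLC6A6 (-0.85) and SLC7A6 (-0.73) had the largest falls in log2 fold change without being called. SLC36A1, a proton-coupled carrier, and the glutamine carrier SLC1A5 had positive values of 0.60 and 0.39.

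In serine synthesis, PHGDH (chr1:119648411-119744218, plus strand), the first enzyme of the pathway, fell from 779, 730 and 746 CPM with vehicle to 392, 353 and 350 CPM with androgen. All 3 androgen libraries were close to one another and far below the vehicle libraries. The log2 fold change was -1.04 (SE 0.05, adjusted p = 8.25e-10, edgeR quasi-likelihood test). PHGDH was the only called gene of the 8 serine and one-carbon enzymes. By the adjusted p alone, 7 of the 8 were lower (37.8% over all genes) and 1 higher (37.1% over all genes). Their median log2 fold change was -0.51. PSAT1 and PSPH, the next enzymes, had log2 fold changes of -0.55 (SE 0.06) and -0.61 (SE 0.04). The trifunctional folate enzyme MTHFD1 had -0.68 (SE 0.05) and mitochondrial MTHFD2 -0.48 (SE 0.06), while mitochondrial SHMT2 was the exception at 0.11 (SE 0.04). Among 19 other one-carbon genes tested, 3 were called lower and 0 higher by edgeR, against 7.49% lower and 6.54% higher over all genes. Those called lower included the thymidylate synthase TYMS (-1.86) and the folate hydrolase GGH (-1.72). By the adjusted p alone, 12 of the 19 were lower and 4 higher.

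Glutamate enzymes moved in both directions. GLUD1 (chr10:87050202-87094843, minus strand), which converts glutamate to 2-oxoglutarate in mitochondria, rose from 130, 114 and 117 CPM with vehicle to 385, 363 and 391 CPM with androgen. The androgen libraries were all about 3 times as high, with a log2 fold change of 1.66 (SE 0.05, adjusted p = 1.40e-11, edgeR quasi-likelihood test). Its transcript is uncertain to count, since 20.2% of its 74-nt stretches have an exact copy outside the gene, and the retrogene GLUD2 was called higher as well (log2 fold change 2.13). GLS2 (chr12:56470944-56488414, minus strand), a mitochondrial glutaminase that makes glutamate from glutamine, fell from 14.0, 14.6 and 14.7 CPM to 6.04, 7.40 and 6.20 CPM. Again the groups did not overlap, and the log2 fold change was -1.14 (SE 0.10, adjusted p = 2.68e-07, edgeR quasi-likelihood test). The mitochondrial aspartate aminotransferase GOT2 had a value of 0.94 (SE 0.04), from 286 ± 7.66 to 546 ± 7.66 CPM (n = 3), and the cytosolic GOT1 one of 0.33 (SE 0.04). The urea cycle enzyme ASS1 had -0.52 (SE 0.06) and asparagine synthetase ASNS -0.30 (SE 0.09). Over 23 other genes of glutamine, proline, arginine and branched-chain metabolism tested, 7 were called higher (6.54% over all genes) and 1 lower (7.49%), which was CPS1, an enzyme that makes carbamoyl phosphate (-1.21). By the adjusted p alone, 17 were higher and 4 lower (37.1% and 37.8% over all genes).

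The 12 synthetases had log2 fold changes between -0.25 and 0.45, and 0 were called by edgeR (6 higher and 3 lower by the adjusted p alone). TARS1 for threonine had the highest value at 0.45 (SE 0.04), followed by WARS1 for tryptophan at 0.43 (SE 0.04), and EPRS1 for glutamate and proline the lowest at -0.25 (SE 0.04). Of 12 other cytosolic synthetase and scaffold genes and 17 mitochondrial synthetases, 0 were called by edgeR in either direction (5 higher and 1 lower, and 4 higher and 6 lower, by the adjusted p alone). In the amino acid stress list, VLDLR (1.92), ATF3 (1.71) and NUPR1 (1.02) were called higher of 23 tested, and 0 lower by edgeR (11 higher and 7 lower by the adjusted p alone). In the lysosomal amino acid sensing list, 3 of 26 were called higher and 2 lower (15 and 5 by the adjusted p alone). Over all genes, 6.54% were called higher and 7.49% lower, and 37.1% were higher and 37.8% lower by the adjusted p alone. MTOR, the kinase that amino acids activate at the lysosome, rose by 1.94 on the log2 scale, and the genes of the arginine sensor CASTOR1 and the leucine sensor SAR1B, which restrain that kinase, rose by 1.29 and 1.16. SESN3 and SESN1, which encode sestrins that also restrain it, fell by 2.66 and 1.53.

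The second question was how these genes differ between PC3 and LNCaP cells. PC3 cells had much more SLC7A5, SLC6A6, SLC38A1 and SLC38A2 than either LNCaP group, and far less SLC7A8, SLC43A2 and ASS1. All 8 of the other amino acid enzymes were lower in PC3 cells by the adjusted p, in both comparisons, while the synthetases were mostly close. The androgen-treated and the vehicle-treated cells were each compared with the same 3 PC3 libraries, and the androgen libraries and the vehicle libraries also enter the comparison with each other, so the comparisons are not independent. Against androgen-treated cells, 10 of 47 genes tested were called higher in PC3 (24.0% of 12541 genes overall) and 13 lower (22.1% overall). Against vehicle-treated cells, 9 of 46 were called higher (22.2% of 12686 overall) and 12 lower (21.0% overall). By the adjusted p alone the counts were 19 higher (42.9% overall) and 16 lower (41.1% overall) against androgen, and 21 higher (42.6% overall) and 17 lower (40.8% overall) against vehicle. The median log2 fold change was 0.044 against androgen (0.036 over all genes) and 0.19 against vehicle (0.026 over all genes).

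**Figure D3:**
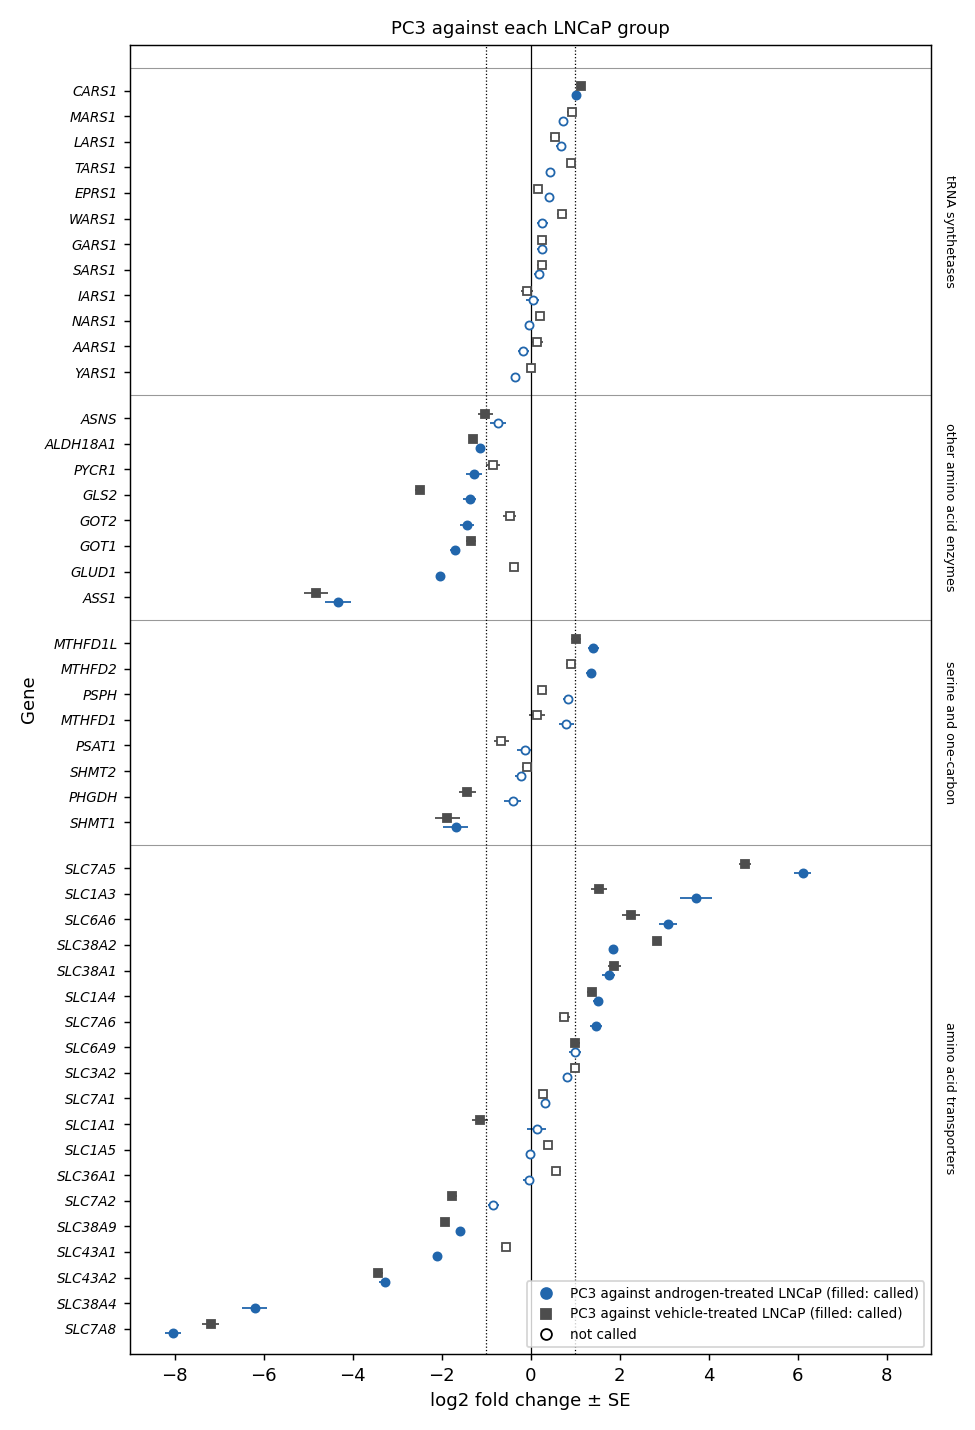
Log2 fold change (± SE) of PC3 against androgen-treated (circles) and vehicle-treated (squares) LNCaP cells, by role, for the genes tested in at least 1 of the comparisons, with filled symbols for genes called and dotted lines at a fold change of 2. The range runs from SLC7A8 at -8.04 to SLC7A5 at 6.11.

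Transporters spread most widely. SLC7A5 stood at 604, 453 and 567 CPM in PC3 cells, against at most 9.04 CPM with androgen and 20.6 CPM with vehicle. No PC3 library came near an LNCaP library, and the log2 fold changes were 6.11 (SE 0.19) against androgen and 4.82 (SE 0.13) against vehicle, with adjusted p of 5.84e-08 and 4.09e-08 by edgeR's quasi-likelihood test. SLC7A8 was the opposite, at 0.236, 0.391 and 0.593 CPM in PC3 (6, 9 and 15 counts), against 106, 112 and 107 CPM with androgen and 61.1, 63.6 and 59.2 CPM with vehicle. These PC3 levels were 0.218% to 0.547% of the androgen mean. Of the LNCaP markers in PC3 libraries, KLK3 was at 0.00185% to 0.0186% of its androgen mean. FOLH1 was at 0% to 0.0264%, KLK2 at 0%, TMPRSS2 at 1.17% to 1.90% and HOXB13 at 110% to 192%. The part of LNCaP RNA in the SLC7A8 levels was not tested. The log2 fold changes of SLC7A8 were -8.04 (SE 0.17) and -7.19 (SE 0.19), with adjusted p of 1.61e-08 and 3.10e-08 by the same edgeR test. SLC43A2 (chr17:1569268-1628886, minus strand) stood at 5.00, 6.31 and 5.10 CPM in PC3, at 57.3, 49.99 and 52.2 CPM with androgen and at 59.4, 59.2 and 59.7 CPM with vehicle. Every PC3 library was far below every LNCaP library, with log2 fold changes of -3.28 (SE 0.13, adjusted p = 1.72e-07) and -3.42 (SE 0.11, adjusted p = 7.52e-08, edgeR quasi-likelihood test). SLC43A1 was lower in PC3 against androgen (-2.09, SE 0.09) but not called against vehicle (-0.56, SE 0.10).

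Levels per kb of transcript allow these carriers to be compared with one another. As a share of the summed CPM per kb of SLC7A5, SLC7A8, SLC43A1 and SLC43A2, SLC7A5 made up 89.7% ± 0.626 in PC3, 1.93% ± 0.340 with androgen and 9.46% ± 0.754 with vehicle (mean ± SD, n = 3). SLC43A1 made up 9.69% ± 0.477, 61.7% ± 1.21 and 42.4% ± 1.92 in the same order, and SLC7A8 0.0739% ± 0.0326, 29.0% ± 0.852 and 32.0% ± 0.818. Per kb, the leading gene was thus SLC7A5 in every PC3 library and SLC43A1 in every LNCaP library. The split between SLC43A1 and SLC7A8 shifted with androgen. With vehicle, the lead of SLC43A1 came from the division by length, since its mean CPM (48.3) was below SLC7A8 (61.3) and SLC43A2 (59.4). With androgen, SLC43A1 led in mean CPM as well (137 against 108 and 53.2). Which transcripts of these genes were present was not tested. The sum itself was 112 to 147 CPM per kb in PC3, 84.6 to 93.0 with androgen and 43.8 to 47.7 with vehicle. SLC3A2, the heavy chain of LAT1 and LAT2, differed less than 2-fold, at 377 ± 27.8, 213 ± 2.20 and 193 ± 3.63 CPM (n = 3). Per kb, SLC7A5 stood at 0.543 to 0.630 of SLC3A2 in PC3 and at 0.0118 to 0.0445 of it in LNCaP libraries.

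**Figure D4:**
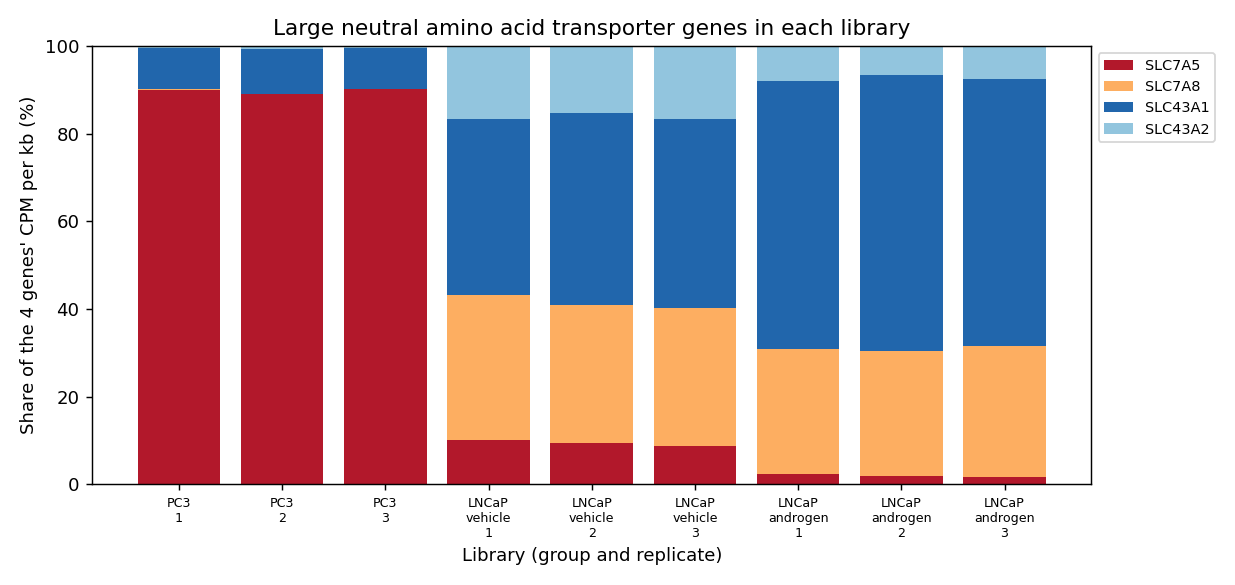
Share (%) of the summed CPM per kb of 4 large neutral amino acid transporter genes in each of the 9 libraries. SLC7A5 forms about 90% of each PC3 bar, and SLC43A1 is the largest segment in each LNCaP bar, at 61.7% on average with androgen and 42.4% with vehicle.

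SLC6A6 (chr3:14402576-14489349, plus strand), the taurine transporter, stood at 71.4, 92.3 and 54.6 CPM in PC3, at 8.77, 9.03 and 7.96 CPM with androgen and at 15.8, 16.9 and 14.1 CPM with vehicle. The lowest PC3 library was still more than 3 times the highest LNCaP library. The log2 fold changes were 3.09 (SE 0.21, adjusted p = 2.87e-06) and 2.25 (SE 0.20, adjusted p = 1.65e-05) by edgeR's quasi-likelihood test. SLC38A2 reached 2658, 2316 and 2784 CPM in PC3, and per kb its PC3 mean (539 CPM per kb) was the highest of the module, while SLC38A1 reached 1153, 947 and 1478 CPM. Both were called higher in PC3 in both comparisons, with log2 fold changes of 1.86 and 2.84 for SLC38A2 and of 1.75 and 1.88 for SLC38A1. SLC38A4 was near the limit of detection in PC3 (5, 2 and 8 counts) and lower than with androgen (-6.20, SE 0.28). The glutamate carrier SLC1A3 (3.71 and 1.54) and the neutral amino acid carrier SLC1A4 (1.51 and 1.37) were called higher in PC3 in both comparisons. SLC7A6 was called higher against androgen (1.47) but missed the 2-fold limit against vehicle (0.76). SLC6A9, the glycine carrier, lay at the 2-fold limit, called against vehicle (1.00) but not androgen (0.99). SLC38A9, the lysosomal arginine sensor, was called lower in PC3 in both (-1.58 and -1.92). SLC7A2 (-0.83 and -1.76) and SLC1A1 (0.13 and -1.14) were called lower against vehicle but not androgen. SLC1A5 (-0.012 and 0.40), SLC7A1 (0.33 and 0.27) and SLC36A1 (-0.041 and 0.58) were called in neither comparison. SLC1A2 had 0 counts in PC3 and 6 to 17 in LNCaP libraries, at least 5.01-fold lower than with androgen, and SLC38A5 had 11 to 15 counts in PC3 and 0 to 6 in LNCaP libraries.

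**Figure D5:**
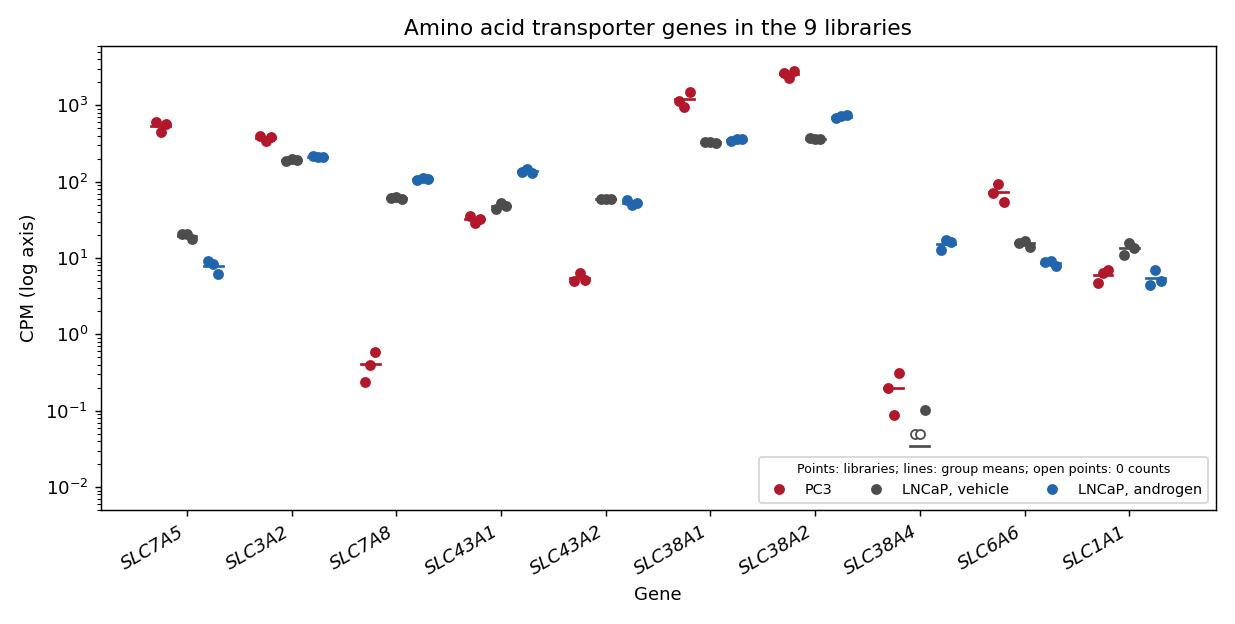
CPM (log axis) of 10 transporter genes in the 9 libraries, with a line at each group mean and open points for libraries with 0 counts. Of the 3 groups, PC3 has the highest SLC7A5 (453 to 604 CPM) and the lowest SLC7A8 (0.236 to 0.593 CPM), and SLC38A4 is above 12 CPM only with androgen.

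Among serine and one-carbon enzymes, mitochondrial MTHFD1L was called higher in PC3 against androgen (1.40) and, at the 2-fold limit, against vehicle (1.02, and 0.998 and not called with all 9 libraries in 1 fit), and MTHFD2 against androgen (1.36) but not vehicle (0.90). Cytosolic SHMT1 was called lower in both (-1.69 and -1.87), at 27.4, 37.3 and 15.5 CPM in PC3 against 78.9 to 101 CPM in LNCaP libraries. The PC3 libraries differed by more than 2-fold among themselves but stayed below every LNCaP library. PHGDH was called lower against vehicle (-1.42, SE 0.19, adjusted p = 0.000220, edgeR quasi-likelihood test) and overlapped the androgen libraries (-0.40, adjusted p = 0.0876, same test), at 287, 190 and 354 CPM in PC3. Per kb, SHMT2 stood at 10.1 to 34.2 times SHMT1 in PC3 and at 4.94 to 7.19 times in LNCaP libraries. PSAT1, PSPH, SHMT2 and MTHFD1 were called in neither comparison, with log2 fold changes between -0.66 and 0.85.

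ASS1 (chr9:130444961-130501274, plus strand), which makes argininosuccinate on the way to arginine, stood at 2.72, 2.61 and 6.01 CPM in PC3, at 83.3, 76.0 and 69.0 CPM with androgen and at 105, 115 and 108 CPM with vehicle. Replicate 3 had more than the other PC3 libraries but remained over 10-fold below each LNCaP library. The log2 fold changes were -4.33 (SE 0.29, adjusted p = 2.69e-06) and -4.82 (SE 0.27, adjusted p = 1.26e-06) by edgeR's quasi-likelihood test. GLS2 stood at 2.56, 2.39 and 2.61 CPM in PC3 and was lower than with androgen (-1.37) and with vehicle (-2.49). GLUD1 stood at 102, 88.9 and 85.1 CPM in PC3 and was called lower against androgen (-2.04) but not vehicle (-0.37). GOT1 (-1.69 and -1.35) and ALDH18A1, which starts proline synthesis (-1.15 and -1.30), were called lower in both. GOT2 (-1.43 and -0.47) and PYCR1, which completes proline synthesis (-1.27 and -0.84), were called only against androgen, and ASNS only against vehicle (-0.74 and -1.02). In all, 7 of the 8 were called lower against androgen and 5 of 8 against vehicle, with medians of -1.40 and -1.16. Of the related glutamine, proline, arginine and branched-chain genes, 14 of 24 tested were called lower against androgen (5 higher) and 9 of 23 against vehicle (2 higher), beside 22.1% and 21.0% lower over all genes.

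Of the synthetases, only CARS1 for cysteine was called, at 282, 227 and 254 CPM in PC3 against 117 to 132 CPM in LNCaP libraries, and it lay at the 2-fold limit (1.01, SE 0.09, and 1.13, SE 0.08). MARS1 for methionine (0.74 and 0.92) and LARS1 for leucine (0.68 and 0.55) followed against androgen, and YARS1 for tyrosine had the lowest value (-0.35) against androgen and 0.013 against vehicle. By the adjusted p alone, 5 of 12 were higher and 1 lower against androgen (42.9% and 41.1% over all genes). Against vehicle, 7 were higher and 0 lower (42.6% and 40.8% over all genes). The medians were 0.26 in both comparisons. In the related lists, the scaffold protein AIMP2 (-1.09 and -1.14) was the only one of 12 genes called. EARS2, the mitochondrial glutamate synthetase, was the only one of 17 mitochondrial synthetases (-2.08 and -1.96). The shares called over all genes were 24.0% higher and 22.1% lower against androgen, and 22.2% and 21.0% against vehicle.

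The 16 genes with a TGATGNAA match included 5 called higher and 1 lower in PC3 against androgen and 5 higher and 2 lower against vehicle, and 0 called by edgeR with androgen against vehicle, where 15 were tested. The 25 genes with a promoter but no match included 4 higher and 11 lower, 3 higher and 9 lower, and 3 higher and 4 lower in the same order. Over all genes, 24.0% were called higher and 22.1% lower in PC3 against androgen, and 22.2% and 21.0% against vehicle. With androgen against vehicle in LNCaP cells, 6.54% were called higher and 7.49% lower over all genes. At such shares few calls could come from 15 genes. The difference between genes with and without a match was not tested. Among the 23 stress genes, 6 were called higher and 6 lower in PC3 against androgen, and 6 higher and 4 lower against vehicle. These shares (26.1% and 26.1%, and 26.1% and 17.4%) lay near those over all genes. PPP1R15A, which directs dephosphorylation of eIF2α, was higher by 4.65 and 5.53 on the log2 scale, and CHAC1, which degrades glutathione, by 3.08 and 2.69. VLDLR (-3.70 and -1.76) and CBS, a transsulphuration enzyme (-3.36 and -3.03), were lower. In the sensing list, 8 of 26 (30.8%) were called lower and 0 higher by edgeR in each comparison. Over all genes, 22.1% were called lower against androgen and 21.0% against vehicle. By the adjusted p alone, 20 were lower and 5 higher against androgen (41.1% and 42.9% over all genes). Against vehicle, 16 were lower and 6 higher (40.8% and 42.6% over all genes). SESN3 had log2 fold changes of -5.12 and -7.76, and RRAGD, a Rag GTPase, had -5.38 and -4.78.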

How the data were processed

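RNA of 9 libraries (3 per group, grouped by the labels) was sequenced as single-end 74-nt reads. The authors trimmed adapters with cutadapt, aligned to hg38 with STAR and removed PCR duplicates with UMI-tools. The submitters' processing notes give versions 4.1, 2.7.7a and 1.1.2, and the study's supplementary methods name other versions of cutadapt and STAR. The authors deposited counts, whole numbers of reads per gene and library without normalisation, in a table of 28216 genes whose values equal STAR's forward-strand counts. Reads on the reverse strand made up 2.33% to 3.06%. 0 columns of the table were left out. Nothing in the labels says that replicates are separate cultures, so p-values measure the spread between these libraries.

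Genes with more than 3 CPM in at least 3 libraries of a fit were tested with edgeR 4.0.16 (R 4.3.3; TMM factors, quasi-likelihood F test) on the 6 libraries of each comparison, with Benjamini-Hochberg adjustment over all of them. The study used a likelihood ratio test with a batch term, which was left out because the batches are not named. Values were written out per library for genes called with androgen, and for genes called in both PC3 comparisons with an absolute log2 fold change of at least 2. Further per-library values were added where needed. From each related list, up to 3 called genes per direction with the largest change could be named, and only some of them were. 1 gene that this rule covers is not reported here. The members and lists were chosen with earlier results of these data known. CPM per kb used the length of the canonical GENCODE transcript (GRCh38). On data simulated for androgen against vehicle, the test recovered 196 of 200 changed genes among 11523, with 0 false calls. For PC3 against androgen it recovered 193 of 200 among 12158 with 0 false calls, and against vehicle 194 of 200 among 12285 with 0 false calls. In the simulations every changed gene lay beyond the 2-fold limit, every other gene had no change, and all genes had the same dispersion. False calls were therefore unlikely by construction. These counts describe the simulated data only. The accuracy of calls near the 2-fold limit in the 9 libraries was not tested.

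Replicate numbers are shared between groups. Over 10910 genes, androgen and vehicle libraries that carry the same number deviated together from their group means (correlations 0.17, 0.23 and 0.21, each over 0.1). Libraries with different numbers had correlations of -0.25 to 0.086. By this check of the counts, the numbers appear to pair LNCaP libraries, although deviations from a mean of 3 libraries are not independent. The main fits left this pairing out, and the replicate block below includes it. Alternatives were DESeq2 1.42.0 size factors and Wald test, a block for the replicate number, edgeR's likelihood ratio test, no filter, unstranded counts, all 9 libraries in 1 fit, the adjusted p alone, and leaving out each library. Confidence intervals cover counting error only.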

Additional observations from a re-analysis of the deposited data

How the results depend on the processing

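Of 139 gene and comparison pairs tested, 130 kept their call under every alternative. The alternatives were DESeq2 size factors, DESeq2's Wald test, edgeR's likelihood ratio test, the replicate block and no filter. Unstranded counts, all 9 libraries in 1 fit and each library left out were further alternatives. 0 pairs reversed, which means a change of sign with an adjusted p under 0.05 in either fit. Pairs with small values could change sign without that, such as IARS1 in PC3 against androgen (-0.12 to 0.18). The adjusted p alone, which drops the 2-fold limit by construction, gave 19 genes higher and 22 lower with androgen, and 19 and 21 higher in PC3 against androgen and vehicle. Leaving out each library gave 3 higher and 4 to 5 lower with androgen, 9 to 11 higher and 13 lower in PC3 against androgen, and 7 to 11 higher and 11 to 13 lower against vehicle. The 9 pairs whose call changed lay near the 2-fold limit. With the replicate block, 3 genes were higher and 4 lower with androgen, and SLC6A9 was no longer called against vehicle (log2 fold change 0.9963), which left 8 higher. The same gene was not called with DESeq2 (size factors 0.9964, Wald test 0.9965) or with all 9 libraries in 1 fit (0.98), in which MTHFD1L was not called either (0.998). Without PC3 replicate 1 (0.93) or androgen replicate 3 (0.96) CARS1 was not called against androgen, and without PC3 replicate 1 (0.97), PC3 replicate 3 (0.92) or vehicle replicate 2 (0.98) or 3 (0.99) MTHFD1L was not called against vehicle. ASNS was not called against vehicle without PC3 replicate 2 (-0.86) or vehicle replicate 1 (-0.99), and SLC6A9 without PC3 replicate 1 (0.97), PC3 replicate 3 (0.90) or vehicle replicate 3 (0.99). Gained calls were SLC7A2 with androgen, without androgen replicate 2 (-1.02), SLC6A9 against androgen, with no filter (1.00) or without PC3 replicate 2 or androgen replicate 1 (1.098 and 1.097), and against vehicle SLC3A2 (1.032) and MARS1 (1.01) without PC3 replicate 2 and PYCR1 (-1.06) without PC3 replicate 3. GLS2 fell under the filter with unstranded counts. PC3 numbers did not pair with LNCaP numbers (correlations -0.20 to 0.076). Depth limits SLC1A2, SLC38A5 and SLC38A4, whose low groups hold few counts.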

Other observations

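Among 32 other amino acid transporter genes, 10 were tested in each PC3 comparison, with 3 called higher and 1 lower against androgen-treated cells and 4 higher and 1 lower against vehicle-treated cells by edgeR's quasi-likelihood test. Over all genes, 24.0% were called higher and 22.1% lower against androgen, and 22.2% and 21.0% against vehicle. SLC43A3, a paralogue of LAT3 known as a nucleobase carrier, had 17.8 CPM on average in PC3 and 0.219 and 0.194 CPM with androgen and vehicle (log2 fold changes 6.28 and 6.51). SLC36A4, a paralogue of SLC36A1, had a log2 fold change of 2.30 in both comparisons. SLC16A10, an aromatic amino acid carrier, was lower in PC3 (-4.22 and -5.38) and also fell with androgen in LNCaP cells (-1.19).

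Of 20 other one-carbon genes tested in PC3 cells, 4 were called higher and 6 lower against androgen, and 2 higher and 7 lower against vehicle. The mitochondrial folate carrier SLC25A32 was higher (1.61 and 1.74) and the proton-coupled folate carrier SLC46A1 lower (-2.19 and -2.64) in both. TYMS was called higher against androgen (1.42, adjusted p = 0.0455, edgeR quasi-likelihood test), but its PC3 libraries stood at 140, 240 and 36.7 CPM, and replicate 3 lay below the androgen mean of 52.5 CPM. NAGS, which makes the activator of the urea cycle, was higher in PC3 (3.74 and 4.14), and ABAT, a GABA transaminase, was lower (-8.68 and -7.89). The acyltransferase gene GLYATL1 had 0 counts in every PC3 library, at least 991-fold lower than with androgen and at least 341-fold lower than with vehicle, and rose with androgen by 1.54 on the log2 scale.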
